A study of Mus musculus with 30 samples.

Results

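Sox9, Sox5 and Sox6 are the members of the SOX family of DNA-binding proteins that direct cartilage formation. They were chosen by gene symbol and not by a cutoff on measured values, though with earlier results of these data known. The array carried 14 probe sets (short sets of probes read together as 1 value) annotated to these 3 genes, 3 for Sox9, 7 for Sox5 and 4 for Sox6, among 18193 genes with a symbol. Of these 14, 13 passed a filter on dim signals, and the brightest of each gene gave its level, in a fit of 15136 genes. Levels are log2(signal + 16), so a difference of 1 is about a doubling of a bright gene and more than a doubling of a dim one.

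The study asked how bone morphogenetic protein signals act on early limb cartilage formation. The cells were limb mesenchyme, the unspecialised tissue that later forms the limb skeleton, taken at E10.5 from embryos of the CD-1 strain and kept in primary culture. The labels call distal hindlimb cells early, distal forelimb cells intermediate and proximal forelimb cells late. Each population was sampled at day 0, and at days 1 and 2 in plain medium (control) or with 20 ng/ml BMP4, a secreted growth factor, added at the start. That gave 15 groups of 2 arrays, labelled as biological replicates. No mutant, transgene or other agent was used in any group. RNA came from pools, with cultures of about 280 embryos per the labels, so an array averages many embryos and every cell type in the dish. In such bulk RNA, fewer cells of a type and less RNA per cell cannot be told apart.

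As background, SOX9 is the factor that limb mesenchyme needs to condense and to become cartilage. SOX9 turns on Sox5 and Sox6, whose products lack an activating domain of their own. They bind beside SOX9 on the enhancers of cartilage matrix genes and strengthen its action there. Together the 3 are called the SOX trio. BMP signals act through SMAD proteins and are known to be needed for limb cartilage, with effects that depend on the stage of the cells.

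The stretches just before the start sites of Sox5 and Sox6 are shown because both genes are read here and are known to lie downstream of another SOX protein. The promoter table holds 1 start for Sox5 and 6 for Sox6, and 2 of the 3 genes are in it. Each line gives the 250 bases before a start on the minus strand of mouse assembly GRCm38.p6, as in RefSeq, 5′ to 3′, with capitals marking the SOX-type motifs AACAAT and ACAAAG in either direction. No 2 matches overlap.
Sox5, chr6:143947107-143947356: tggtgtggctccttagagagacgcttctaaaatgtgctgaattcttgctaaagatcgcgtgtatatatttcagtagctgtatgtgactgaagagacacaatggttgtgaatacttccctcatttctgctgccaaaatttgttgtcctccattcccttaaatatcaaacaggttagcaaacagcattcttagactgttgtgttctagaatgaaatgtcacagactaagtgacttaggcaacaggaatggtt
Sox6, first start, chr7:116038745-116038994: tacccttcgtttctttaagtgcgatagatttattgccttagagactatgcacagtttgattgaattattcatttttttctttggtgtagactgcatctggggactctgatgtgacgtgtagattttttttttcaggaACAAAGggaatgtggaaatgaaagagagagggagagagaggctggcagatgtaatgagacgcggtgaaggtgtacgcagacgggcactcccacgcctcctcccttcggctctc
Sox6, a further start, chr7:115824711-115824960: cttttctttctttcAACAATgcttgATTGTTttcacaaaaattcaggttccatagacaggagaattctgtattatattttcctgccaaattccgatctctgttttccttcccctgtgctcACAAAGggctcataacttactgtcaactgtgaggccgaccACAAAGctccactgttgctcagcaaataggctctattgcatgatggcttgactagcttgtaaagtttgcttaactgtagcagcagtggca
Of the 6 Sox6 windows, 5 held at least 1 match, and the last one printed held 4. The Sox5 window held 0. Over all 32851 windows of the same length, 9.42% held AACAAT, 16.5% held ACAAAG and 24% held either. Among 18 windows of 14 listed cartilage genes, 1 held a match (Papss2, which makes the sulfate donor for matrix sugars). A match of these letters is a description and not a binding site.

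The arrays were similar in depth, with a median signal of 33.9 to 46.4 and a correlation between the replicates of a group of 0.970 to 0.984 across genes. The labels of 3 day 0 arrays go against limb identity genes. Pitx1, a hindlimb factor, read 9.37 to 9.95 on the 8 cultured early arrays and 4.75 to 6.66 on the 16 cultured forelimb arrays. At day 0 it read 5.90 on the array labelled early replicate 2 and 9.43 on the one labelled intermediate replicate 2. Tbx5, a forelimb factor, was at 8.50 and 4.68 on these 2 arrays, against 4.73 to 5.85 on the cultured early arrays. Meis2, a proximal factor, was at 7.53 on the array labelled late replicate 2, against 9.37 to 10.45 on the 8 cultured late arrays. Day 0 results are therefore also given without these 3 arrays.

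Red cell genes also set day 0 apart, since the summed signal of 7 such genes was 7408 to 17550 on the 6 day 0 arrays and 92.0 to 467 on the 24 cultured ones. BMP target genes were read as a check of the treatment. Msx2, a direct BMP target, rose by 2.02 ± 0.24 (SE) over the 3 populations at day 1 (limma, adjusted p = 3.13e-05). It rose in the early population by 2.81 ± 0.42 (SE, 2 arrays against 2) at day 1 and by 2.27 ± 0.42 at day 2 (adjusted p = 0.000653 and 0.00334). Smad6, a BMP feedback inhibitor, rose there by 1.72 ± 0.30 at day 1 (adjusted p = 0.00233). Id1, another target gene, read 10.15 and 9.88 in the early day 1 controls and 10.00 and 10.06 with BMP4. The 2 early BMP4 replicate 2 arrays read lower than their replicate 1 arrays in Sox9 and Sox6 on both days. In Sox5 they did so by a like margin at day 1 only. The main results of the 3 genes that rest on these arrays are given with and without them.

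Culture itself was followed by higher Sox9 and much higher Sox6. Over the 3 populations Sox6 rose by 2.54 ± 0.33 (SE) from day 0 to day 1, a 5.83-fold change on this scale, and Sox9 by 1.00 ± 0.21, or 2.00-fold. Sox5 was 0.50 ± 0.21 higher and did not pass the threshold. From day 1 to day 2 none of the 3 passed, so the step lay in the first day.

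Sox6 read 5.94 and 7.04 at day 0 on the early arrays (replicates 1 and 2), 9.35 and 9.25 at day 1 in control medium, and 9.53 and 9.80 at day 2. In the intermediate population it read 6.95 and 6.06, then 9.85 and 9.17, then 9.56 and 9.25. In the late population it read 7.56 and 6.59, then 8.72 and 9.06, then 8.20 and 8.78. Every one of the 12 control culture arrays lay above every one of the 6 day 0 arrays. How many of all genes were split in this way was not counted.

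Sox9 read 7.99 and 8.64 at day 0 on the early arrays, 9.66 and 9.51 at day 1, and 9.68 and 9.91 at day 2. In the intermediate population it read 8.19 and 8.62, then 9.66 and 9.16, then 9.31 and 9.50. In the late population it read 8.38 and 8.53, then 9.09 and 9.26, then 9.09 and 9.56. Sox9 too was higher on each of the 12 control culture arrays than on any of the 6 at day 0, again with no count over all genes.

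Sox5 read 6.47 and 7.39 at day 0 on the early arrays, 7.45 and 7.35 at day 1, and 7.51 and 7.26 at day 2. In the intermediate population it read 7.17 and 6.69, then 8.12 and 7.36, then 7.93 and 7.89. In the late population it read 7.18 and 7.07, then 7.36 and 7.33, then 7.25 and 7.15. Its day 0 and culture arrays overlapped, and the early replicate 2 array at day 0 was the highest of the 6.

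**Figure D1:**
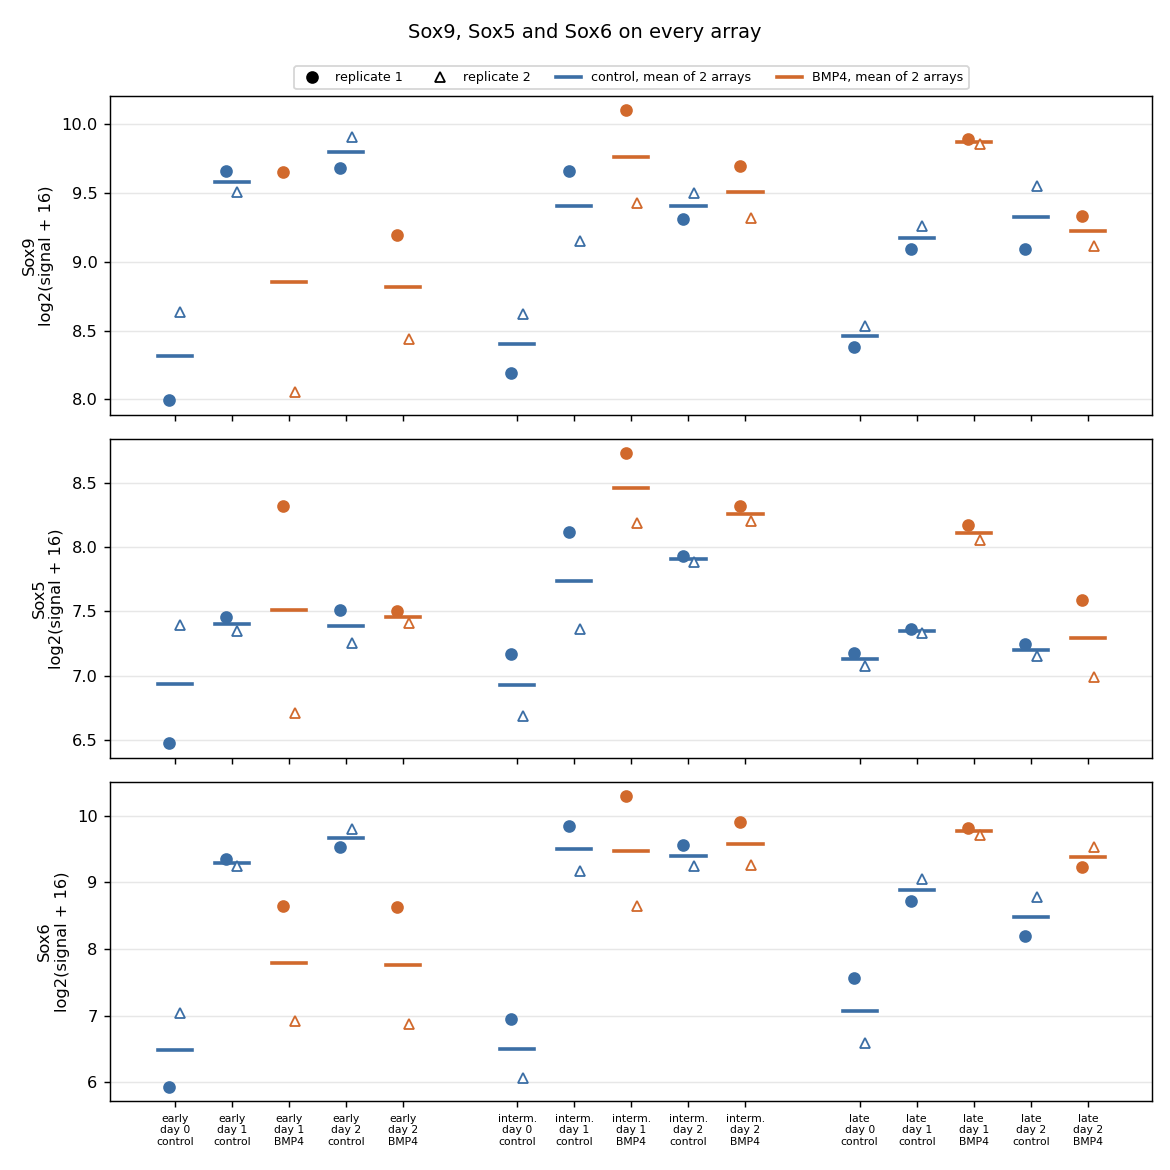
Level of Sox9, Sox5 and Sox6 on each of the 30 arrays, as log2(signal + 16) of the brightest probe set, by population, day and treatment; circles are replicate 1, open triangles replicate 2, and bars the mean of the 2 arrays. Day 0 arrays are low for Sox6 and Sox9, and the early BMP4 replicate 2 arrays lie within the day 0 range for both genes.

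In the test over populations, 2 of the 3 genes passed from day 0 to day 1, where 39.5% of all 15136 genes did. The adjusted p was 3.37e-06 for Sox6, 0.000584 for Sox9 and 0.0662 for Sox5 (limma, Benjamini-Hochberg over all genes). From day 1 to day 2, 0 of 3 passed, against 8.55% of all genes; the differences were 0.12 for Sox9, 0.00 for Sox5 and -0.05 for Sox6, with 95% intervals of -0.31 to 0.55, -0.44 to 0.44 and -0.74 to 0.65. From day 0 to day 2, 2 of 3 passed (adjusted p = 2.46e-06 for Sox6 and 0.000123 for Sox9), against 48.5% of all genes. The members' count is to be read against these high shares. Without the 3 doubted day 0 arrays the day 1 rises were 2.42 ± 0.39 for Sox6 and 1.20 ± 0.26 for Sox9 (adjusted p = 0.000148 and 0.00169), and the day 2 rises 2.37 ± 0.39 and 1.32 ± 0.26 (adjusted p = 0.000108 and 0.000513). Sox5 was then 0.56 ± 0.25 higher on either day (adjusted p = 0.107 and 0.0872). Sox5 passed without the early replicate 2 array of day 0, at 0.65 for both days (adjusted p = 0.0213 and 0.0165), at day 1 without the intermediate control replicate 2 array of that day (0.63, adjusted p = 0.0314), and at day 2 without the intermediate replicate 1 array of day 0 (0.58, adjusted p = 0.0436). The part of the falling red cell signal in these differences was not tested.

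By population, the day 2 rise was called for Sox6 and Sox9 in the early cells, at 3.18 ± 0.58 and 1.48 ± 0.36, where 24.1% of genes were called (adjusted p = 0.000354 and 0.00417). Without the early replicate 1 array at day 0, Sox9 there was 1.16 higher (adjusted p = 0.0759). All 3 genes passed in the intermediate cells, where 30.3% of genes did, at 2.90 ± 0.58 for Sox6, 1.01 ± 0.36 for Sox9 and 0.98 ± 0.37 for Sox5 (adjusted p = 0.000614, 0.0382 and 0.0471). Leaving out any 1 of the 4 intermediate arrays ended the calls of Sox9 and Sox5, at adjusted p of 0.057 to 0.22 and of 0.0543 to 0.282. None of the 3 passed in the late cells, where 27.5% of genes did: Sox6 was 1.41 ± 0.58 higher, Sox9 0.87 ± 0.36 and Sox5 0.07 ± 0.37 (adjusted p = 0.0768, 0.0801 and 0.911). Without the 3 doubted arrays Sox6 was 3.73 ± 0.68, 2.45 ± 0.68 and 0.93 ± 0.68 higher in early, intermediate and late cells (adjusted p = 0.000845, 0.0157 and 0.408), and Sox9 1.80 ± 0.45, 1.22 ± 0.45 and 0.94 ± 0.45 (adjusted p = 0.00843, 0.0637 and 0.174). Sox5 was then 0.91 ± 0.43, 0.74 ± 0.43 and 0.02 ± 0.43 higher, and none of these passed (adjusted p = 0.16, 0.264 and 0.984). Whether the rise differed between populations was not tested.

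With BMP4 the early population had less Sox6 and less Sox9 when both days were averaged. The brightest Sox5 probe set showed no difference over 0.11 on either day. Sox6 read 8.65 and 6.92 with BMP4 at day 1 against 9.35 and 9.25 in control, and 8.64 and 6.87 at day 2 against 9.53 and 9.80. The groups did not overlap on either day, and replicate 2 was the lower array each time. The share of all genes without overlap was not counted. Sox9 read 9.66 and 8.06 with BMP4 at day 1 against 9.66 and 9.51, and 9.20 and 8.44 at day 2 against 9.68 and 9.91. At day 1 the replicate 1 array was level with the controls, so only day 2 was without overlap. Sox5 read 8.32 and 6.71 with BMP4 at day 1 against 7.45 and 7.35, one array above both controls and one below both, and 7.50 and 7.40 at day 2 against 7.51 and 7.26.

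Taken day by day, 0 of the 3 genes passed, against 2.45% of all genes at day 1 and 5.68% at day 2. The Sox6 difference was -1.51 ± 0.58 at day 1 and -1.91 ± 0.58 at day 2 (adjusted p = 0.201 and 0.0558). For Sox9 it was -0.73 ± 0.36 and -0.98 ± 0.36 (adjusted p = 0.349 and 0.118), and for Sox5 0.11 ± 0.37 and 0.07 ± 0.37 (adjusted p = 0.933 and 0.942). The day 2 value of Sox6 passed under 4 alternative settings, at adjusted p of 0.0247 to 0.0417, and without the replicate 1 BMP4 array of that day, at -2.79 (adjusted p = 0.0134). Sox9 at day 1 passed without the replicate 1 BMP4 array of that day, at -1.53 (adjusted p = 0.0157).

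Averaged over days 1 and 2, a comparison added after the values were seen, 2 of 3 genes fell, where 11% of all genes were called. Sox6 fell by 1.71 ± 0.41, to 0.305 of its control level, and Sox9 fell by 0.85 ± 0.25, to 0.554 (4 arrays against 4; adjusted p = 0.00944 and 0.0338). Sox5 was 0.09 ± 0.26 higher, with a 95% interval of -0.45 to 0.63. Each SE uses a spread shared by all 15 groups, and the fit counts the arrays of both days as independent. The Sox6 SD was 1.22 and 1.25 in early BMP4 at days 1 and 2, and 0.07 in early day 1 control. In a fit of only the compared arrays neither Sox6 nor Sox9 passed. Both falls rest on the replicate 2 BMP4 arrays. Without both of them the difference was -0.84 ± 0.39 for Sox6 and -0.26 ± 0.21 for Sox9 (adjusted p = 0.245 and 0.509). Leaving out 1 of them moved Sox6 to -1.28 (day 1) or -1.27 (day 2), with adjusted p of 0.0615 and 0.0774. Sox9 kept its call only without one of the replicate 1 BMP4 arrays, and the other 6 single omissions gave adjusted p of 0.055 to 0.193 and values of -0.91 to -0.45.

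BMP targets were not lower on these replicate 2 arrays. Msx2 read 10.47 and 9.78 on them (days 1 and 2), against 9.98 and 9.31 on the replicate 1 arrays and 6.83 to 7.99 on the 4 early controls. Marker sums of other cells on the 4 early BMP4 arrays (replicates 1 and 2) were 1328 and 1074 at day 1 and 1011 and 659 at day 2 for 10 ectoderm genes, against 961 and 842 and then 687 and 577 in control. The sum of 10 limb mesenchyme markers was 10694 and 10712, then 8223 and 7806, against 8892 and 7787, then 6978 and 6583. Msx1, also among the listed BMP targets, is in this sum, so it is no reading of mesenchyme content apart from the treatment. The sum of 8 Schwann and neural crest genes was 548 and 485, then 582 and 372, against 535 and 676, then 666 and 541, and was lowest of the 30 arrays on the day 2 BMP4 replicate 2 array. The sum of 15 skeletal muscle genes was 2143 to 6861 with BMP4 and 2662 to 5510 in control, and overlapped. The part of these markers in the falls of Sox6 and Sox9 was not tested.

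**Figure D2:**
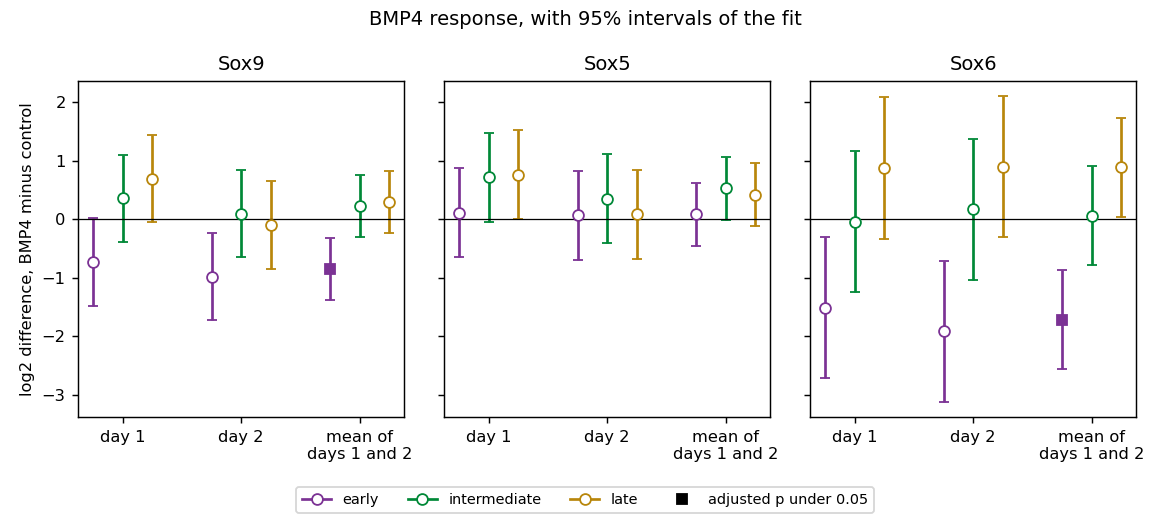
BMP4 minus control on the log2(signal + 16) scale for each population at day 1, at day 2 and averaged over both days; bars are 95% intervals of the fit and filled squares mark an adjusted p under 0.05. The early values of Sox6 (-1.51, -1.91, -1.71) and Sox9 lie below 0, the late Sox6 values (0.88, 0.90, 0.89) above, and the early Sox5 values near 0.

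In the late population all 3 genes were higher with BMP4 at day 1, but no value passed. Sox9 read 9.90 and 9.85 with BMP4 against 9.09 and 9.26, Sox5 8.17 and 8.05 against 7.36 and 7.33, and Sox6 9.81 and 9.72 against 8.72 and 9.06. The groups did not overlap for any of the 3, but how many of all genes were so separated at day 1 or day 2 was not counted. The differences were 0.70 ± 0.36, 0.76 ± 0.37 and 0.88 ± 0.58 (adjusted p = 0.696, 0.658 and 0.821), and 0.0793% of all genes were called. At day 2, where 0.0132% of genes were called, Sox6 was still apart from its controls, at 9.23 and 9.54 against 8.20 and 8.78. Sox9 read 9.33 and 9.12 against 9.09 and 9.56, and Sox5 7.59 and 6.99 against 7.25 and 7.15, and both overlapped. Averaged over the days, where 0.277% of genes were called, Sox6 was 0.89 ± 0.41 higher (95% interval 0.04 to 1.74, adjusted p = 0.532), Sox5 0.43 ± 0.26 and Sox9 0.30 ± 0.25. The Sox6 value passed in a fit of only the compared arrays (adjusted p = 0.0265). The sum of 15 skeletal muscle genes was 8262 to 16543 on the 8 cultured late arrays and 1750 to 6861 on the other 16, so late dishes held more muscle RNA with and without BMP4.

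In the intermediate population Sox5 had the largest difference from control of the 3 genes with BMP4, though no value passed. It read 8.73 and 8.18 at day 1 against 8.12 and 7.36, and 8.32 and 8.20 at day 2 against 7.93 and 7.89. The BMP4 arrays lay above their controls on both days, a separation whose share over all genes was not counted. The differences were 0.72 ± 0.37 and 0.35 ± 0.37 (adjusted p = 0.72 and 1), and 0.54 ± 0.26 over both days (95% interval 0.00 to 1.07, adjusted p = 0.576). Sox9 read 10.10 and 9.43 at day 1 against 9.66 and 9.16, and 9.70 and 9.32 at day 2 against 9.31 and 9.50. Sox6 read 10.29 and 8.64 at day 1 against 9.85 and 9.17, and 9.90 and 9.26 against 9.56 and 9.25. Both genes overlapped on both days. None of the 3 passed at day 1, day 2 or over both days, where 0.238%, 0.00661% and 0.509% of all genes did.

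Averaged over the 3 populations, 0 of 3 genes passed at day 1, against 6.3% of all genes, and 0 of 3 at day 2, against 1.9%. Sox5 came nearest, 0.53 ± 0.21 higher at day 1 (adjusted p = 0.154). Sox9 and Sox6 averages mix opposite signs, at 0.11 ± 0.21 and -0.23 ± 0.33 at day 1 and -0.33 ± 0.21 and -0.28 ± 0.33 at day 2. The change of the response from day 1 to day 2 passed for 0 of 3 genes and for 0.0132% of all genes.

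The difference of the BMP4 response between populations was tested as such. Per day, 0 of 18 values passed. The Sox6 response was 2.39 ± 0.82 lower in early than in late cells at day 1 and 2.81 ± 0.82 lower at day 2 (adjusted p = 0.63 and 0.207), where 0.0264% and 0.211% of all genes were called. Against intermediate cells it was -1.47 ± 0.82 and -2.09 ± 0.82, where 0.0264% and 0.271% of genes were called. Intermediate minus late gave -0.92 ± 0.82 and -0.72 ± 0.82, where 0% and 0.00661% were called; at an unadjusted p under 0.05 the first of these comparisons held 424 genes.

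The response differences averaged over both days were also added after the values were seen. Of these, early minus late passed for 1 of 3 genes, against 0.78% of all genes. It was Sox6, at -2.60 ± 0.58 (limma, 16 arrays in the contrast, adjusted p = 0.039). Sox9 was at -1.15 ± 0.36 and Sox5 at -0.33 ± 0.37 (adjusted p = 0.157 and 0.772), and Sox9 passed only without the early day 1 BMP4 replicate 1 array (-1.55, adjusted p = 0.00998). The Sox6 value kept its sign when any 1 of the 16 arrays was left out, at -3.04 to -2.16. It passed in 2 of these fits, those without an early BMP4 replicate 1 array of day 1 or day 2, and in the other 14 the adjusted p was 0.0539 to 0.125. Without both early BMP4 replicate 2 arrays it was -1.73 ± 0.51 (adjusted p = 0.214). For early minus intermediate, where 0.429% of genes were called, 0 of 3 passed, with Sox6 at -1.78 ± 0.58 and Sox9 at -1.08 ± 0.36 (adjusted p = 0.245 and 0.261), and Sox9 passed without the early day 1 BMP4 replicate 1 array (-1.48, adjusted p = 0.0183). For intermediate minus late 0 of 3 passed and 0% of all genes, although 598 had an unadjusted p under 0.05.

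In control culture no difference between populations passed for these genes. Over days 1 and 2, 0 of 9 values passed, where 1.48% of all genes were called for early minus late, 0.852% for early minus intermediate and 2.64% for intermediate minus late. Sox6 was 0.79 ± 0.41 higher in early than in late cells (95% interval -0.06 to 1.65, adjusted p = 0.63), and Sox9 0.44 ± 0.25 higher (interval -0.09 to 0.97). Sox5 was 0.55 ± 0.26 higher in intermediate than in late cells (interval 0.01 to 1.09, adjusted p = 0.367).

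Ordered by mean level (± SD, n = 2), Sox9 ran from 9.87 ± 0.03 in late day 1 BMP4 cultures and 9.80 ± 0.16 in early day 2 control, through 9.77 ± 0.48 in intermediate day 1 BMP4 and 9.58 ± 0.11 in early day 1 control, to 8.86 ± 1.13 and 8.82 ± 0.53 in early BMP4 at days 1 and 2 and 8.46 ± 0.10, 8.40 ± 0.30 and 8.31 ± 0.45 at day 0 in late, intermediate and early cells. The arrays of all 14 neighbouring groups in this order overlapped. Sox6 had the same 2 groups at the top, 9.77 ± 0.07 and 9.66 ± 0.19, and the same 5 at the bottom, with early BMP4 at 7.79 ± 1.22 and 7.75 ± 1.25 above day 0 at 7.08 ± 0.69, 6.50 ± 0.63 and 6.49 ± 0.78. Of its 14 neighbours 13 overlapped, and the exception was the step from early to late control at day 1 (9.30 ± 0.07 against 8.89 ± 0.24). Sox5 was ordered differently: intermediate BMP4 was on top, at 8.46 ± 0.38 and 8.26 ± 0.08 for days 1 and 2, then late day 1 BMP4 at 8.11 ± 0.08, while early BMP4 stood in the middle at 7.51 ± 1.14 and 7.45 ± 0.07. The early and intermediate day 0 groups were lowest, at 6.93 ± 0.65 and 6.93 ± 0.34, and 12 of 14 neighbours overlapped.

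The other probe sets give the same genes a second reading on the same arrays, with p-values adjusted over 33198 probe sets. All 4 Sox6 probe sets rose from day 0 to day 2, by 2.50, 1.25, 1.39 and 0.95. All 4 fell with BMP4 in early cells over both days, by 1.71, 0.95, 0.98 and 0.90 (limma, adjusted p = 0.0119, 0.0247, 0.03 and 0.0341). These falls share the low replicate 2 BMP4 arrays, and the probe sets were not refitted without them. On those arrays 1434918_at read 6.84 and 6.73 (days 1 and 2), against 8.06 and 8.20 on replicate 1. The brightest, 1447655_x_at, has probes that may also bind related sequences, and it showed larger changes than the other 3. In early minus late, 0 of the 4 passed at this adjustment, with 1447655_x_at at an adjusted p of 0.0522. Of the 3 Sox9 probe sets all rose by day 2 (1.12, 0.99 and 0.57), and with BMP4 in early cells 1424950_at fell by 0.85 (adjusted p = 0.0425), 1451538_at was at -0.66 (adjusted p = 0.0782) and 1433889_at, above the filter on 4 of 30 arrays, at -0.01. For Sox5, 6 of 7 probe sets were kept and 1459261_at, above the filter on 0 arrays, was not. With BMP4 at day 1 over the 3 populations 5 of the 6 were higher, and 1455535_at rose by 0.75 ± 0.14 (adjusted p = 0.00333), while the brightest, 1432189_a_at, was at 0.53 (adjusted p = 0.186). With BMP4 in early cells the 6 ran from -0.03 to 0.41 at day 1 and from -0.73 to 0.17 at day 2, and 0 passed. By day 2 of control culture 1455535_at rose by 0.72 (adjusted p = 0.000268) and the other 5 did not pass.

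**Figure D3:**
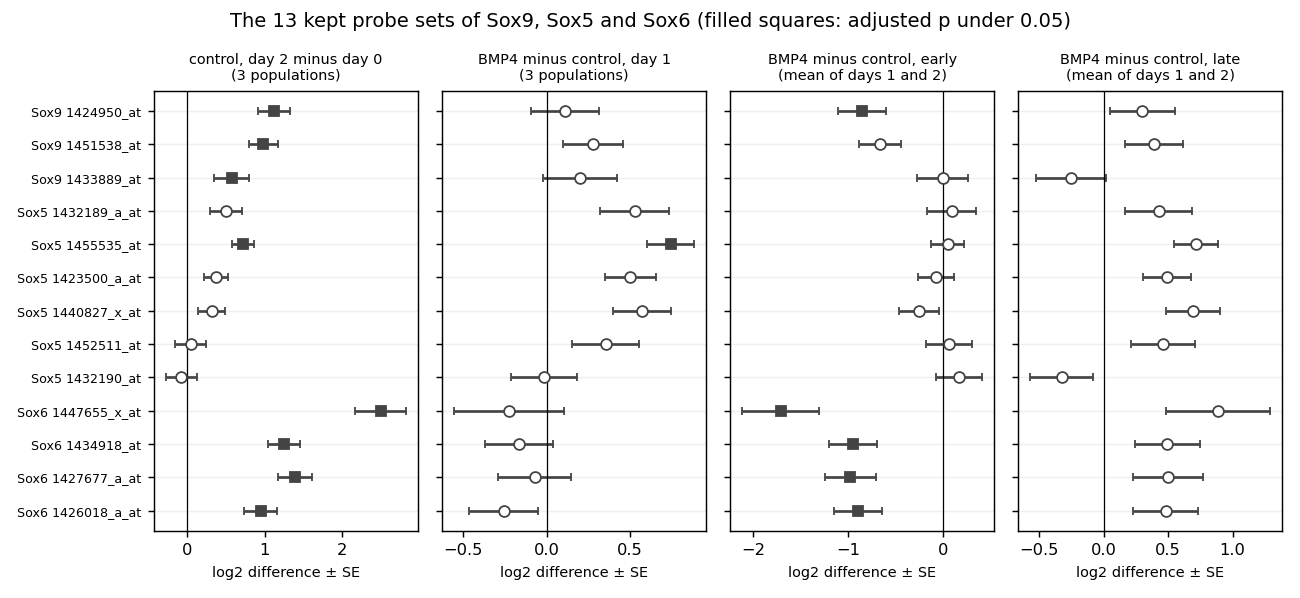
Log2 difference ± SE for the 13 kept probe sets of Sox9, Sox5 and Sox6 in 4 comparisons; filled squares mark an adjusted p under 0.05 over all 33198 probe sets. The 4 Sox6 probe sets move together in time (0.95 to 2.50) and with BMP4 in early cells (-1.71 to -0.90). In early cells the Sox5 probe sets run from -0.25 to 0.17 over both days.

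Sox9 and Sox6 varied together across the culture arrays, which differ in population, day and treatment. Their gaps between replicate 1 and replicate 2 had an r of 0.76 over the 15 groups. Over the 24 culture arrays Pearson's r was 0.87 and Spearman's rho 0.76 for Sox9 with Sox6, 0.63 and 0.54 for Sox9 with Sox5, and 0.52 and 0.45 for Sox5 with Sox6. Without the 2 early BMP4 replicate 2 arrays r was 0.68, 0.56 and 0.41 over 22 arrays. Among the 12 control culture arrays Sox9 and Sox6 had an r of 0.72, and Sox9 and Sox5 of 0.16; among the 12 BMP4 arrays these were 0.90 and 0.86. At day 0 (6 arrays) r was 0.21 for Sox9 with Sox6 and 0.86 for Sox5 with Sox6. The points share groups and an array-wide scale, and these values are descriptions with no test.

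The cartilage genes that the trio is known to drive were read from a list of 18, all tested. In control culture 17 of 18 rose from day 0 to day 2, against 48.5% of all genes changed, with a median difference of 2.40 against -0.01 for all genes. In the first day 14 rose and Hapln1 fell, against 39.5% of all genes called; from day 1 to day 2, when none of the 3 SOX genes passed, 13 of 18 rose, Hapln1 among them, with a median of 1.14, where 8.55% of all genes were called. Col2a1, the main cartilage collagen, rose by 3.27 ± 0.30 in the first day and was 0.26 ± 0.30 higher after the second. Matn1, a later matrix protein, rose by 0.78 ± 0.30 and then by 3.89 ± 0.30.

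With BMP4 in early cells at day 1, where 2.45% of all genes were called, 0 of 18 fell and Hapln1, the link protein that holds aggrecan to hyaluronan, rose by 2.20 ± 0.36, from 5.45 and 6.03 to 7.64 and 8.23 (adjusted p = 0.0017). At day 2, where 5.68% of all genes were called, 10 of 18 fell and 0 rose, with a median of -1.46 against 0.02 for all genes. Matn1 read 8.02 and 5.44 with BMP4 against 10.28 and 9.99 and fell by 3.41 ± 0.52 (adjusted p = 0.000892). Acan, the main cartilage proteoglycan, read 7.58 and 6.24 against 8.49 and 8.28 and fell by 1.47 ± 0.35 (adjusted p = 0.0157). Col11a2, a fibril collagen, read 7.87 and 6.44 against 8.63 and 8.57 and fell by 1.44 ± 0.34 (adjusted p = 0.0167). In all 3 the replicate 2 array was the lowest, as for Sox6. Col2a1 read 11.63 and 10.25 against 11.89 and 11.99 and Col9a1 11.91 and 10.52 against 12.20 and 12.13, and neither passed. The day 2 count was 1 of 18 without the replicate 2 BMP4 array, 2 without either control array and 13 without the replicate 1 BMP4 array.

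Over both days, where 11% of all genes were called, 11 of 18 fell in early cells, and 3 of 18 without both replicate 2 BMP4 arrays. Single omissions gave 4 to 15, with 4 without the day 1 control replicate 1 or the day 2 BMP4 replicate 2 array, 5 without the day 1 BMP4 replicate 2 and 6 without the day 2 control replicate 1 array. In late cells all 18 lay above 0 over both days, with a median of 0.73, and Acan rose by 1.35 ± 0.24 (adjusted p = 0.0152); in intermediate cells 0 of 18 passed. Early minus late was lower for 7 of 18 over both days, against 0.78% of all genes called. Among them were Acan at -2.23 ± 0.35, Matn1 at -3.05 ± 0.52 and Col11a2 at -1.99 ± 0.34. This early minus late count was not repeated without the early BMP4 replicate 2 arrays. Over the 24 culture arrays the mean level of the 18 genes had an r of 0.61 with Sox6, 0.50 with Sox9 and 0.18 with Sox5, which became 0.38, 0.18 and -0.03 without the early BMP4 replicate 2 arrays.

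**Figure D4:**
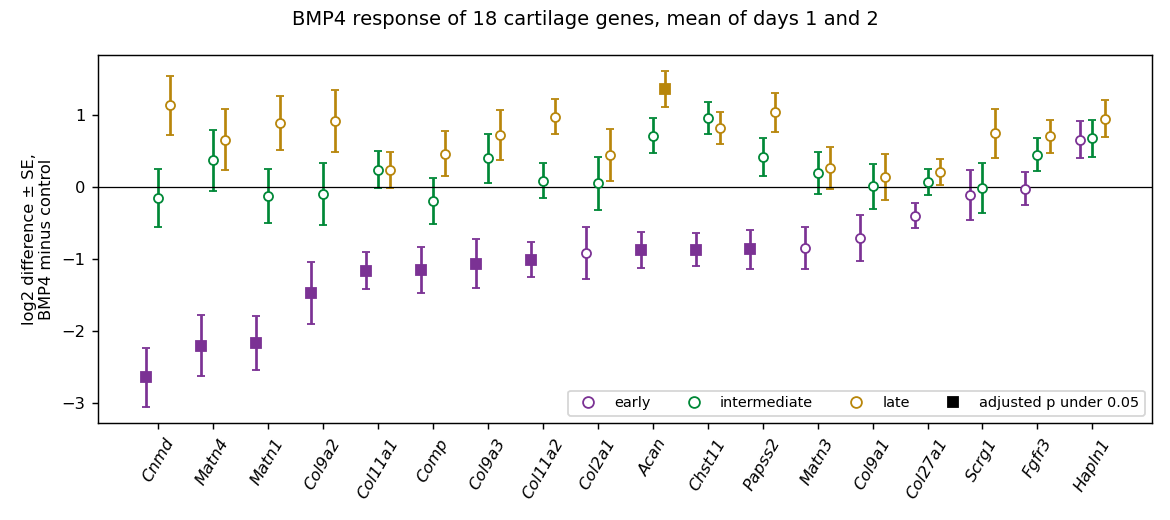
BMP4 minus control (log2 difference ± SE, mean of days 1 and 2) for 18 cartilage genes in the early, intermediate and late populations; filled squares mark an adjusted p under 0.05. In early cells 11 genes fell, in late cells all 18 lay above 0 and Acan passed, and Hapln1 was above 0 in every population.

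**Figure D5:**
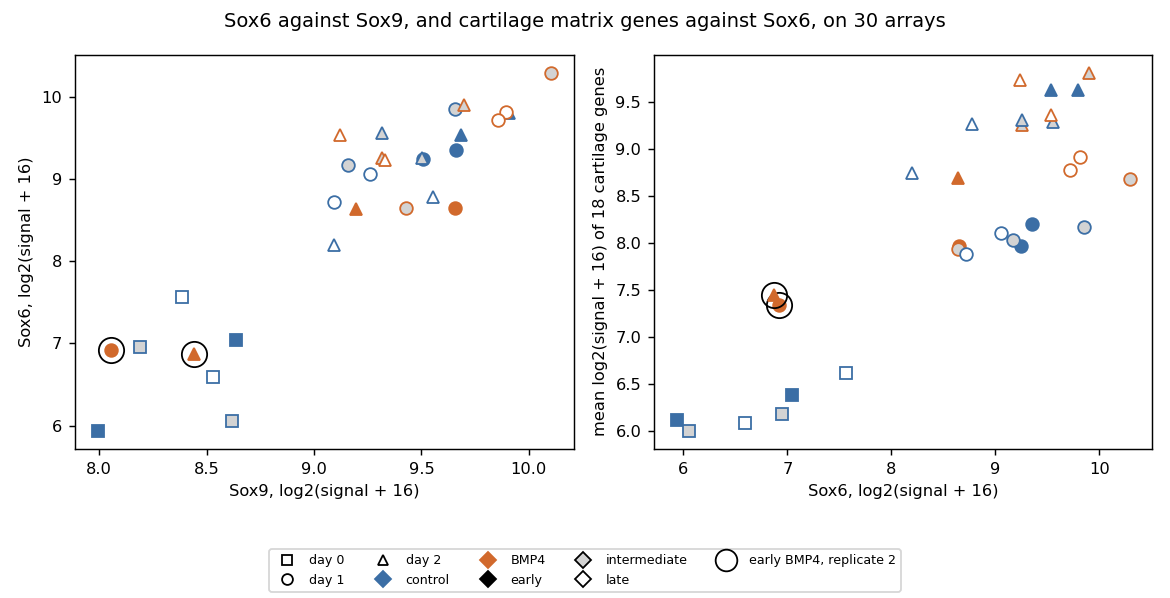
Left, Sox6 against Sox9; right, the mean level of 18 cartilage genes against Sox6, each point 1 of 30 arrays on the log2(signal + 16) scale; edge colour gives the treatment, shape the day, fill the population, and rings mark the 2 early BMP4 replicate 2 arrays. The ringed arrays read 6.92 and 6.87 for Sox6, within the day 0 range of 5.94 to 7.56, while their cartilage gene means, 7.34 and 7.44, lie above every day 0 array (6.61 at most).

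Partners of SOX9 and other factors of cartilage formation were read from a list of 21, of which 18 were tested. With BMP4 in early cells at day 2, where 5.68% of all genes were called, 4 of 18 fell and 2 rose. These calls were not repeated without the early BMP4 replicate 2 arrays. Wwp2, a ubiquitin ligase that binds SOX9, fell by 2.15 ± 0.53. Foxc2, a forkhead factor of skeletal progenitors, fell by 2.12 ± 0.50. Runx3, a factor of cartilage maturation, fell by 2.59 ± 0.52, and Foxa3, a forkhead factor of maturing cartilage, fell by 1.09 ± 0.23 (adjusted p = 0.019, 0.0157, 0.00577 and 0.00854). Arid5b, a DNA-binding cofactor, rose by 1.37 ± 0.26 and Gli3, a hedgehog pathway repressor, by 0.56 ± 0.15 (adjusted p = 0.00386 and 0.0331). The other BMP4 comparisons by population and day gave 0 of 18.

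Of 16 other SOX genes 11 were tested. With BMP4 in early cells 0 of 11 passed at day 1, where 2.45% of all genes did, and 1 of 11 fell at day 2, where 5.68% were called, a share too near the background to read as a result about these relatives. It was Sox13, a close relative of Sox5 and Sox6. Sox13 read 7.12 and 7.57 with BMP4 against 8.58 and 8.26 and fell by 1.07 ± 0.27 (adjusted p = 0.0234). In control culture Sox8, of the same subgroup as Sox9, rose by 0.81 ± 0.18 by day 2, and Sox11, a progenitor factor, fell by 0.97 ± 0.08 (adjusted p = 0.000758 and 4.09e-09). Sox10, a neural crest factor, was at -0.13 ± 0.14, and Sox4, a progenitor factor, at 0.02 ± 0.07.

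The 5 genes most like each member were ranked by Pearson's r of the 15 group means among 5223 genes whose means span at least 1 on the log2 scale, with the other 2 members left out. For Sox6 they were Sned1 (r 0.97), Pogk, Prdm16os, Pcolce2 and Ppfibp1 (0.96 each). For Sox9 they were Ppfibp1 (0.94), Slc35e3 and Stk26 (0.93 each), and Chst15 and Chst11 (0.92 each), the last a sulfotransferase of cartilage matrix and 1 of the 18 listed cartilage genes. For Sox5 they were Ppargc1a, Bmpr1b, a BMP receptor, Lgr4 and Kcnmb4 (0.90 each) and Lrrc8c (0.86). These ranks include the step from day 0 to culture.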

How the data were processed

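Gene expression was measured on 30 Affymetrix mouse 430 2.0 arrays, 2 in each of 15 groups taken from the labels. The deposited values are linear signal intensity, made by the authors with MAS5 per the submitters' processing notes; the sources used here do not give its settings, and the trimmed mean of every array is 150. Values were used as log2(signal + 16) with no further scaling. Of 45101 probe sets, 33198 lay above their array's 40th percentile on at least 2 arrays, and each gene with a single symbol was read from its brightest probe set (15136 genes). Symbols came from the platform annotation, with 34741 probe sets matched by gene number to assembly GRCm38.p6.

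limma 3.58.1 in R 4.3.3 was fitted with a mean for each group on all 30 arrays (15 residual degrees of freedom), with a mean-variance trend and two-sided Benjamini-Hochberg adjustment over all genes of a comparison at 0.05. The replicate number was not a term of the fit. The labels name biological replicates; p-values measure the spread between such arrays, and 2 a group limit the precision. The fit was tested on simulated data.

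Members and gene lists were chosen with earlier results of these data known. Named genes are the members, 6 cartilage genes (Col2a1, Col9a1, Col11a2, Acan, Hapln1, Matn1), 5 relatives (Sox4, Sox8, Sox10, Sox11, Sox13), Id1, Smad6 and Msx2 as a check of BMP4, the 5 most alike genes of each member, and list members where at most 5 passed. Pitx1, Tbx5 and Meis2 were added after their values were seen. Tested markers of other cells were skeletal muscle, red cell, Schwann, endothelial and ectoderm genes; summed signals of 8 Schwann and neural crest genes ran from 372 to 992, and of 10 endothelial genes from 258 to 998. Promoter windows were read with Python 3.11.15. Alternatives were another pseudocount, no filter, other scalings, a replicate block, fewer arrays, no trend, array weights and the mean of all probe sets.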

Additional observations from a re-analysis of the deposited data

Results flagged for a closer look

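The Sox6 response to BMP4 passed a test of the difference between early and late cells, but only narrowly. Averaged over days 1 and 2 the response was -1.71 in early and 0.89 in late cells, and early minus late was -2.60 (limma, adjusted p = 0.039, Benjamini-Hochberg over 15136 genes). This averaged comparison was added after the values were seen. By day the difference was -2.39 and -2.81, and neither passed (adjusted p = 0.63 and 0.207). The averaged call was lost in 14 of 16 single omissions and under 5 alternative settings, and its probe set missed the threshold when adjusted over all probe sets (adjusted p = 0.0522). Without the 2 early BMP4 replicate 2 arrays the difference was -1.73 (adjusted p = 0.214). The cause was not tested.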

How the results depend on the processing

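Under settings other than single omissions, 474 values of Sox9, Sox5 and Sox6 kept their direction and call, 18 lost a call, 18 gained one and 9 changed sign; these follow, with the adjusted p of limma, and their cause was not tested. The rises of Sox6 and Sox9 from day 0 to day 1 and to day 2 over the 3 populations held in every setting and single omission. For early day 2 BMP4 the Sox6 value passed with a pseudocount of 64 (-1.66, adjusted p 0.0417), with median centring (-2.08, 0.0247), with the replicate block (-1.91, 0.0266) and with array weights (-1.91, 0.0286), and Sox9 with median centring (-1.15, 0.0401). Median centring moves every early BMP4 difference down by 0.12 at day 1, 0.17 at day 2 and 0.15 over both, relative to the shift of all genes. It turned Sox5 to -0.012, -0.10 and -0.055 there and Sox9 to -0.033 at intermediate day 2. Early minus late Sox6 over both days lost its call with a pseudocount of 1 (-2.72, 0.0574), without the filter (-2.60, 0.0517), without the trend (-2.60, 0.0543), as the mean of all probe sets (-1.72, 0.0513) and without both early BMP4 replicate 2 arrays (-1.73, 0.214). Without those 2 arrays, chosen after the values were seen, the early mean was -0.84 (0.245) for Sox6 and -0.26 (0.509) for Sox9, and Sox9 at early day 1 was 0.073 (0.952). With only the compared arrays the early mean was -1.71 (0.051) for Sox6 and -0.85 (0.144) for Sox9, while the late mean of Sox6 passed (0.89, 0.0265), and as the mean of all probe sets -0.51 (0.105) for Sox9. The mean of all probe sets also gave Sox5 -0.16 at early day 2 and -0.042 for late day 2 minus day 0, and Sox6 -0.0046 for the intermediate mean; quantile scaling gave Sox5 -0.046 for late day 2 minus day 0.

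In time, the intermediate day 2 calls of Sox9 and Sox5 were lost without the filter (1.01, 0.0507 and 0.98, 0.0626), with quantile scaling (0.96, 0.0538 and 0.88, 0.0682), without the 3 doubted day 0 arrays (1.22, 0.0637 and 0.74, 0.264) and without the trend (1.01, 0.0509 and 0.98, 0.0582). Sox5 over the 3 populations passed from day 0 to day 1 and to day 2 with median centring (0.53, 0.0435 and 0.53, 0.034), the replicate block (0.50, 0.04 and 0.50, 0.0334) and only the compared arrays (0.50, 0.0449 and 0.50, 0.018), and to day 2 with array weights (0.50, 0.0397). Late day 2 passed for Sox6 with the replicate block (1.41, 0.0463), only the compared arrays (1.41, 0.0204) and array weights (1.41, 0.0414), and for Sox9 with the last 2 (0.87, 0.0144 and 0.87, 0.0405). The replicate block changed no other call of the members. No label says what a replicate number shares, and replicate 1 minus 2 correlated between groups at -0.12 to 0.35 over genes, above 0.1 in 60 of 105 pairs and not in all, so the numbers were not taken as pairs. The red cell sum was higher in replicate 1 in 15 of 15 groups, and whether a number marks a shared set of embryos was not tested. Their count past the threshold was 1 of 6 for BMP4 over the 3 populations without both early BMP4 replicate 2 arrays, and 1 of 9 between control populations with only the compared arrays. Of the 18 cartilage genes, 6 were lower in early day 2 BMP4 with a pseudocount of 1, 2 with only the compared arrays and 1 without both replicate 2 arrays, and over both days 6 and 3 with the last 2.

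Single omissions gave these ranges. Sox5 was 0.34 to 0.65 for day 1 minus day 0 and 0.35 to 0.65 for day 2 minus day 0 over the populations, 0.74 to 1.22 for intermediate and -0.013 to 0.91 for early day 2 minus day 0. Sox9 was 0.79 to 1.22 for intermediate and 1.16 to 1.80 for early day 2 minus day 0. With BMP4 in early cells, Sox9 was -1.53 to 0.073 at day 1 and -1.25 to -0.45 over both days, Sox6 -2.79 to -1.03 at day 2 and -2.15 to -1.27 over both, and Sox5 -0.70 to 0.91 at day 1, -0.054 to 0.20 at day 2 and -0.31 to 0.49 over both. In intermediate cells Sox6 was -0.87 to 0.78 at day 1, -0.15 to 0.50 at day 2 and -0.35 to 0.48 over both, and Sox9 -0.091 to 0.29 at day 2. In late cells at day 2 Sox9 was -0.33 to 0.13 and Sox5 -0.21 to 0.39. Early minus late over both days was -1.55 to -0.75 for Sox9 and -3.04 to -2.16 for Sox6. Members past the threshold were 0 to 1 for BMP4 over the populations and for response differences by day. The cartilage count in early BMP4 was 1 to 13 at day 2 and 4 to 15 over both days. With 2 arrays a group, an omission leaves a single array that is assumed to vary like the others. No detection calls were used, so dim probe sets carry compressed differences.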

Other observations

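The brightest Sox6 probe set, 1447655_x_at, varied more between the replicates of a group than most genes did. Its gap between replicate 1 and replicate 2 exceeded that of 90% of the 15136 genes in 9 of 15 groups, with a median percentile of 91.7. Sox9 did so in 2 groups and Sox5 in 4, at median percentiles of 76.4 and 36.0. The Sox6 count takes in the day 0 groups, at 96.4 (intermediate), 97.0 (late) and 97.7 (early). Each of those holds an array whose label goes against limb identity genes. The gaps of Sox6 had the same sign as those of the mean of 18 cartilage genes in 12 of 15 groups and as those of Sox9 in 11. In 3 groups Sox6 exceeded 99% of genes: early BMP4 at day 1 (99.8), early BMP4 at day 2 (99.7) and intermediate BMP4 at day 1 (99.5). In early BMP4 at day 1 Sox9 and Sox5 did so too (both 99.6). Another Sox6 probe set, 1434918_at, had a day 0 SD of 0.14 in both intermediate and late cells, against 0.63 and 0.69 for 1447655_x_at. In intermediate day 1 control and day 2 BMP4 it was 0.09 and 0.01, against 0.48 and 0.46. In early BMP4 at days 1 and 2 it was 0.86 and 1.04, against 1.22 and 1.25. It was larger in late day 1 BMP4, at 0.14 against 0.07.

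Hapln1 parted from the SOX genes in early BMP4 cultures at day 1, where its replicate 2 array, low in Sox6, was the higher one (8.23 against 7.64).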
